A study of Mus musculus with 6 samples.

Results

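The mitochondrial genome transcripts are the RNAs read from mitochondrial DNA. They were taken as every row of the deposited count table whose gene symbol starts with mt-, which gave 37 of 50600 genes: 2 ribosomal RNA (rRNA) genes, 13 protein genes and 22 transfer RNA (tRNA) genes. Macrophages came from pancreatic islets or from epididymal white fat (EpiWAT), a depot next to the testis. The donors were C57BL/6J males aged 12 weeks on a chow diet with no treatment, and cells were sorted as DAPI-negative and positive for CD45, F4/80 and CD64. Each tissue gave 3 libraries, with the numbers 2, 4 and 6 in both, and the labels give same-numbered libraries the same batch name. The tissues are called autologous in the design text, but the sources used here do not say whether animals were pooled, so p-values measure the spread between these libraries. Values of an islet or fat triplet are always given in the order of libraries 2, 4 and 6.

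Mitochondrial DNA is a small circle whose strands are both transcribed as long precursors that start in a control region. The heavy-strand promoter gives both rRNAs, most tRNAs and nearly all protein genes, while the light-strand promoter gives mt-Nd6 and the remaining tRNAs. The tRNAs stand between the other genes, and their excision releases the rRNAs and messengers. All of the protein genes encode core subunits of respiratory chain complexes I, III and IV or of ATP synthase (complex V). In macrophages the balance between respiration and glycolysis is known to shift with activation state.

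Nuclear chromosomes carry copies of mitochondrial DNA, and a read that matches a copy as well as its origin cannot be placed uniquely. The following sequences are shown because they stand for a gene with almost no counts (mt-Co3), 1 with few (mt-Nd3) and 1 with many (mt-Nd2). Sequences are from GENCODE M21 transcripts on GRCm38, written 5′ to 3′ on the transcript strand, and capitals mark bases that differ between gene and copy. The start of mt-Co3 (chrM:8607-8666, + strand), which encodes subunit 3 of cytochrome c oxidase, had no difference from its copy Gm28437 (chr1:24613912-24613971, - strand).
mt-Co3: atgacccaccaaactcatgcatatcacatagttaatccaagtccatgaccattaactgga
Gm28437: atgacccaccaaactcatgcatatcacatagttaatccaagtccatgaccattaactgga
The start of mt-Nd3 (chrM:9459-9518, + strand), a complex I subunit gene, differed from Gm28438 (chr1:24613060-24613119, - strand) by T3C, counted from 1 at the transcript's 5′ end, with the mitochondrial base first.
mt-Nd3: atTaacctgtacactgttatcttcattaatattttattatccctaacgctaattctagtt
Gm28438: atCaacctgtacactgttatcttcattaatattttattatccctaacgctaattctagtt
A stretch of mt-Nd2 (chrM:4474-4593, + strand), another complex I subunit gene, differed from the copy Gm13339 (chr2:22590382-22590501, - strand) at 4 places, T579C, T603A, C638T and A668G.
mt-Nd2: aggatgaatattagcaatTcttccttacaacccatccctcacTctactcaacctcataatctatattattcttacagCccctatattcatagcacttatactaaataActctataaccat
Gm13339: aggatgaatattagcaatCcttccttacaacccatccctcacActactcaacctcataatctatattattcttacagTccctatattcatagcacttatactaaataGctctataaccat

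On GRCm38 chromosome 1, 7 annotated copies formed a block from 24611535 to 24616197, in the order of the mitochondrial genes. Over their aligned length, mt-Co2 and Gm28661 (681 bases), mt-Atp6 and Gm10925 (678), mt-Co3 and Gm28437 (783), mt-Nd4l and Gm10222 (294) and the first 876 bases of mt-Nd4 and Gm28439 had 0 mismatches. The last 483 bases of mt-Co1 had 1 mismatch to Gm29216, and the whole of mt-Co1 had 37 mismatches over 1545 bases to Gm13340 on chromosome 2. Each mitochondrial transcript was cut into all its windows of 50 bases, and a window was called shared if it also occurred, on either strand, in a transcript of another GENCODE M21 gene. Shared windows made up 100% of mt-Co2, 99.9% of mt-Co3, 99.5% of mt-Atp6, 98.8% of mt-Nd4l and 98.0% of mt-Nd3. They made up 62.2% of mt-Nd4, 51.1% of mt-Co1, 8.19% of mt-Nd2 and 7.61% of mt-Nd5, and none of mt-Nd1, mt-Nd6 or mt-Cytb. Both rRNA genes were nearly free of shared windows (0% of mt-Rnr1, 1.04% of mt-Rnr2).

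Counts were very low for most genes of that block. Of the 13 protein genes, 5 took only 119 of 313237 protein gene counts over the 6 libraries (0.0380%). They were mt-Co2 and mt-Co3, of cytochrome c oxidase, mt-Atp6 and mt-Atp8, of ATP synthase, and mt-Nd4l, of complex I. In islet libraries 2, 4 and 6, mt-Co2 had 10, 3 and 2 counts, and in the fat libraries it had 19, 7 and 3. Its neighbour mt-Co3 had 4, 3 and 3 counts in the islet and 12, 8 and 9 in the fat libraries. Over all 6 libraries, counts ranged from 2 to 8 for mt-Atp6, from 0 to 2 for mt-Atp8 and from 0 to 1 for mt-Nd4l. Per kilobase of gene, mt-Co2, mt-Atp6, mt-Co3 and mt-Nd4l averaged 0.308 to 1.52 CPM (counts-per-million on library sizes scaled by TMM). On the same scale, mt-Nd1, mt-Nd6 and mt-Cytb, with no shared window, averaged 412 to 1281 CPM per kilobase. The subunit genes mt-Co1 and mt-Co2 belong to the same enzyme and averaged 1635 and 1.52 CPM per kilobase. The sources used here do not say how reads that map to several places were treated, nor how long the reads were. The part of sharing in the low counts was not tested.

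**Figure D1:**
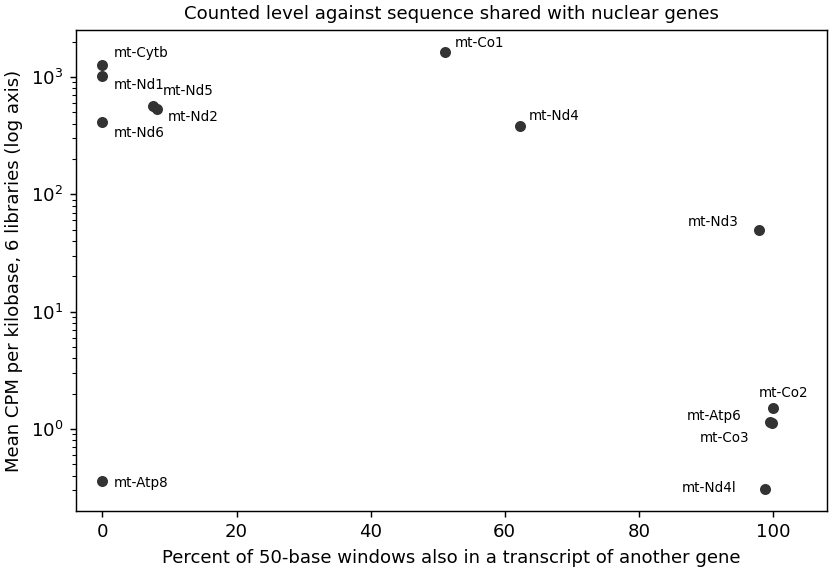
Each point is 1 of the 13 mitochondrial protein genes. The x axis is the percent of its 50-base windows found in another gene's transcript and the y axis its mean CPM per kilobase over 6 libraries on a log axis. Genes above 95% shared lie between 0.308 and 49.99, and mt-Atp8 lies at 0.357 with 0% shared.

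Exceptions were mt-Atp8 and mt-Nd3. The short ATP synthase subunit gene mt-Atp8 (chrM:7766-7969) had 0% shared windows and still averaged 0.357 CPM per kilobase. It lies between mt-Co2 and mt-Atp6, which are 230 bases apart. On chromosome 1 the copies of mt-Co2 and mt-Atp6 are 233 bases apart, and no gene with a shared window is annotated in that gap. The sequence of the gap was not read, so whether it holds a copy of mt-Atp8 was not tested. The last 43 bases of mt-Atp8 are also the first of mt-Atp6, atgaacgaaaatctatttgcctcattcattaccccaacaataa (chrM:7927-7969, + strand), so reads there belong to both genes. The other exception was mt-Nd3, with 98.0% shared windows and 49.99 CPM per kilobase, well above the other highly shared genes. It had 180, 65 and 72 counts in the islet libraries and 130, 98 and 123 in the fat libraries. The nuclear copies themselves received few counts. Of the 15 annotated genes with a shared window, AC124578.3 had no match in the count table and was entered as 0. Together the 15 had 36 to 152 counts per library, 0.192% of the counts of the mitochondrial protein genes. Beside the low genes alone these counts were not small. Gm10925 (12 to 32 per library) and Gm28437 (9 to 19) exceeded mt-Atp6 and mt-Co3 in every library. Except in islet library 4, Gm28661 exceeded mt-Co2 and Gm10222 exceeded mt-Nd4l. The aligned copies of mt-Nd3, mt-Nd4, mt-Co1 and mt-Nd2 had far fewer counts than their genes.

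**Figure D2:**
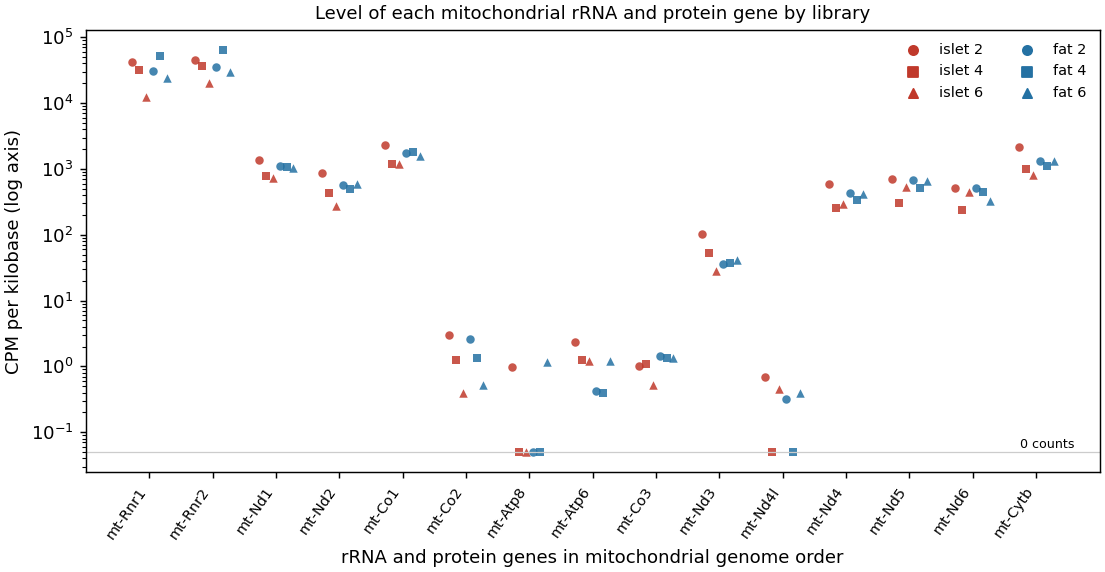
The x axis lists the 2 rRNA and 13 protein genes in mitochondrial genome order and the y axis gives CPM per kilobase on a log axis, with red points for islet and blue for fat libraries and the shape for the library number. From mt-Co2 to mt-Nd4l the genes lie far below mt-Co1 and mt-Nd4 in all 6 libraries, with mt-Nd3 between, and points on the grey line had 0 counts.

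The rRNAs of the mitochondrial ribosome made up nearly all mitochondrial counts. The genes mt-Rnr1 (12S rRNA, chrM:70-1024) and mt-Rnr2 (16S rRNA, chrM:1094-2675) together took 9.32%, 7.55% and 4.72% of all counts in the islet libraries, and 9.78%, 15.2% and 7.78% in the fat libraries. Fat library 4 was the highest and islet library 6 the lowest, and the tissues overlapped. The mean share was 7.20% ± 2.32 in islet and 10.9% ± 3.81 in fat macrophages (SD, n = 3 per tissue; exact two-sided permutation p = 0.2, where 0.1 is the smallest possible). Within each number the islet library had the lower share (3 of 3). On the TMM-scaled CPM, in contrast, islet library 2 was above fat library 2 (log2 0.47 for mt-Rnr1 and 0.35 for mt-Rnr2). Counting error was small beside this spread, with exact (Clopper-Pearson) 95% binomial intervals of at most 0.0256 and 0.0258 percentage points on either side of the value in islet and fat libraries. These intervals cover only counting error, as PCR copies were not told apart. The library kit removes ribosomal cDNA, and nuclear entries that resemble rRNA (Gm42418, Gm26917 and Rn18s-rs5 among them) took 1.24%, 1.85% and 1.49% of islet and 0.802%, 1.61% and 1.08% of fat counts. The part of depletion in the rRNA shares was not tested.

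Within the pair, mt-Rnr2 had 1.75, 1.87 and 2.68 counts for each count of mt-Rnr1 in the islet libraries. In fat libraries 2, 4 and 6 it had 1.90, 2.02 and 2.03. Islet library 6 stood above the other 5, which lay close together. The log2 ratio averaged 1.04 ± 0.33 in islet and 0.99 ± 0.05 in fat macrophages (SD, n = 3; exact permutation p = 1). Per kilobase, mt-Rnr2 averaged 38364 and mt-Rnr1 32424 CPM.

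The 13 protein genes together took 0.885%, 0.441% and 0.575% of all counts in the islet libraries and 0.913%, 0.734% and 0.830% in the fat libraries. Islet library 2 lay within the fat range and islet libraries 4 and 6 lay below it, and each islet library was below the fat library of its number. The mean was 0.634% ± 0.227 in islet and 0.826% ± 0.0896 in fat macrophages (SD, n = 3; exact two-sided permutation p = 0.3). As a percent of counts outside the mitochondrial rRNA genes, the means were 0.685 ± 0.259 and 0.926 ± 0.0768 (exact permutation p = 0.3, n = 3). For each protein gene count there were many rRNA counts, with a log2 ratio of 3.51 ± 0.54 in islet and 3.67 ± 0.61 in fat macrophages (exact permutation p = 0.6, n = 3). The highest ratios were in the libraries numbered 4, with 4.10 in islet and 4.37 in fat.

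**Figure D3:**
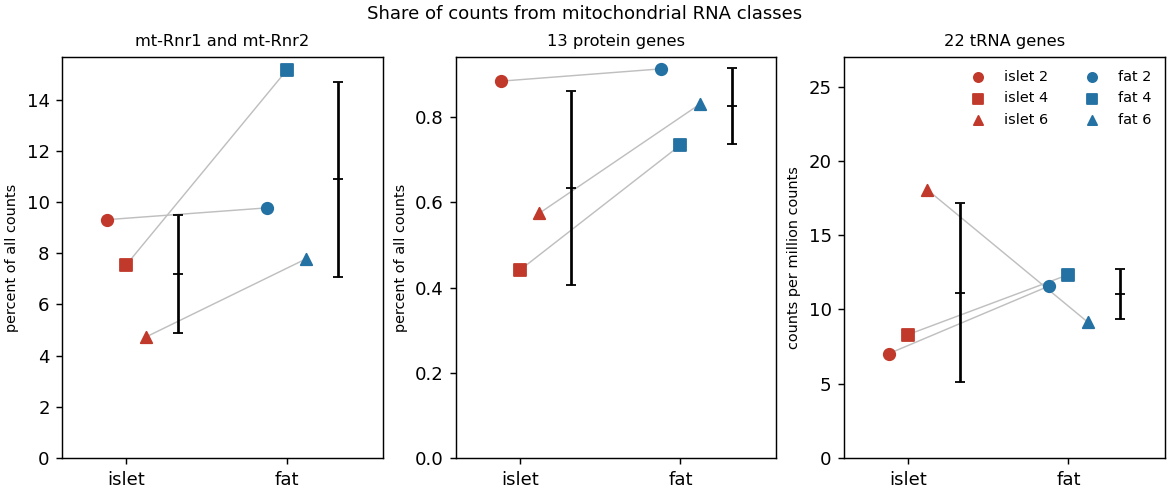
The panels show, for each library, the percent of all counts from both rRNA genes and from the 13 protein genes, and tRNA gene CPM of the unscaled totals, with grey lines joining libraries of the same number and black marks for mean and SD (n = 3). Tissues overlap in every panel, and islet library 6 is highest for tRNA genes at 18.1 CPM of the unscaled total.

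Islet and fat macrophages were then compared gene by gene with edgeR's quasi-likelihood test, fitted on the whole table and adjusted over all 12152 genes tested by Benjamini-Hochberg. Of the 37 genes, 12 passed the filter on low counts: both rRNA genes, 8 protein genes and the tRNA genes mt-Ty and mt-Tp. In edgeR 0 of these 12 were higher and 0 lower in islet macrophages at an adjusted p under 0.05, against 19.4% of all genes tested (8.97% higher and 10.5% lower). None had an unadjusted p under 0.05 in edgeR (the share over all genes at that p is not given here), and DESeq2 and limma voom also called 0. Their edgeR adjusted p-values ran from 0.350 to 0.948. All 12 overlapped between tissues, but the share of all genes tested that overlapped is not given here, so this is not read as a trait of these genes. The median log2 difference was -0.13 over the 12 genes and 0.01 over all genes tested.

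A p that misses the threshold does not show equal levels. For the 7 protein genes other than mt-Nd3, the fitted log2 difference, islet minus fat, lay between -0.25 and 0.08. Their 95% intervals, taken from the quasi-likelihood fit, spanned 0.483-fold to 1.99-fold. For the rRNAs the log2 difference was -0.29 ± 0.53 for mt-Rnr1 and -0.33 ± 0.48 for mt-Rnr2 (SE), with intervals reaching from 0.355-fold to 1.88-fold and from 0.371-fold to 1.70-fold.

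Complex I, which takes electrons from NADH, has 7 mitochondrial subunit genes. Its gene mt-Nd1 (chrM:2751-3707) stood at 1291, 743 and 707 CPM in islet and 1059, 1039 and 983 CPM in the fat libraries. Islet library 2 was above and the other islet libraries below every fat library. The fitted log2 difference was -0.17 ± 0.32 (SE, edgeR adjusted p = 0.758). In the same order of libraries, mt-Nd2 (chrM:3914-4951) stood at 903, 443 and 283 CPM in islet and 599, 521 and 607 CPM in fat macrophages. Again only islet library 2 exceeded the fat range, and the difference was -0.08 ± 0.41 (edgeR adjusted p = 0.910). The longest protein gene, mt-Nd5 (chrM:11742-13565), had 1286, 559 and 983 CPM in islet and 1218, 929 and 1212 CPM in fat macrophages, where islet library 6 lay inside the fat range (log2 -0.25 ± 0.35, edgeR adjusted p = 0.675).

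For mt-Nd4 (chrM:10167-11544) the values were 806, 354 and 401 CPM in islet and 590, 457 and 564 CPM in the fat libraries. Islet library 2 was highest and the other islet libraries were below the fat range (log2 -0.04 ± 0.35, edgeR adjusted p = 0.948). The light-strand gene mt-Nd6 (chrM:13552-14070, - strand) had 263, 122 and 230 CPM in islet and 264, 232 and 171 CPM in fat macrophages (log2 -0.11 ± 0.33, edgeR adjusted p = 0.848). Here islet library 6 lay above fat library 6. The largest fitted difference among protein genes was that of mt-Nd3 (chrM:9459-9806), at 36.3, 18.6 and 9.70 CPM in islet and 12.3, 13.003 and 14.5 CPM in fat macrophages. Islet libraries 2 and 4 were above the fat range and islet library 6 below it. The log2 difference was 0.70 ± 0.47 (edgeR adjusted p = 0.350), and without islet replicate 6 it was 1.05 ± 0.35 and passed (edgeR adjusted p = 0.0477). In that fit 1649 of all 12978 genes tested were called higher. All but 6 of the 299 windows of mt-Nd3 are shared with Gm28438, which had 0 to 3 counts per library.

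Complexes III and IV pass electrons on to oxygen. The complex III gene mt-Cytb (cytochrome b, chrM:14145-15288) stood at 2467, 1123 and 929 CPM in islet and 1497, 1275 and 1499 CPM in the fat libraries. Islet library 2 had more than any other library, and the other islet libraries had less than any fat library (log2 0.08 ± 0.40, edgeR adjusted p = 0.912). The complex IV gene mt-Co1 (cytochrome c oxidase subunit 1, chrM:5328-6872) stood at 3589, 1811 and 1815 CPM in islet and 2734, 2793 and 2417 CPM in fat macrophages. It showed the same arrangement of libraries, with a log2 difference of -0.14 ± 0.36 (edgeR adjusted p = 0.828). For mt-Co2, mt-Co3, mt-Atp6, mt-Atp8 and mt-Nd4l, 0 to 19 counts per library allowed no comparison of tissues.

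**Figure D4:**
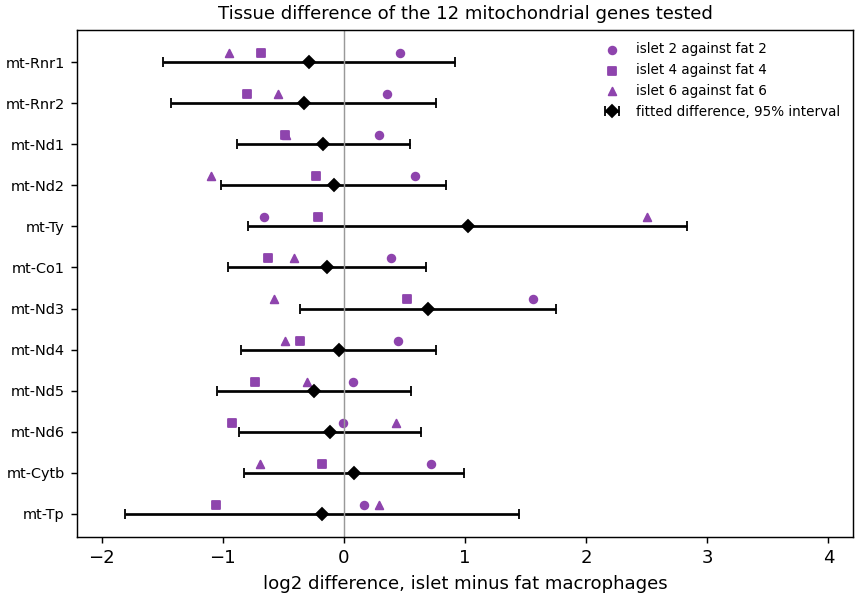
The x axis is the log2 difference, islet minus fat macrophages, and each row is 1 of the 12 mitochondrial genes that passed the filter on low counts. Black diamonds with bars give the edgeR estimate with its 95% interval, purple marks the log2 ratio of CPM between libraries of the same number; every interval crosses 0, and 7 of 8 protein genes are higher in islet for number 2 against 1 of 8 for numbers 4 and 6.

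With TMM scaling the direction depended on the library number. Between islet library 2 and fat library 2, 7 of the 8 tested protein genes were higher in islet, with a median log2 ratio of 0.42. Between the libraries numbered 4, 1 of 8 was higher in islet (median -0.43), and between those numbered 6 also 1 of 8 (median -0.48). The unscaled share of the protein genes was, in contrast, lower in islet for number 2 as well. The islet libraries also differed in heat shock RNA. A list of 12 heat shock genes took 11.3%, 11.7% and 1.24% of counts in the islet libraries and 0.399% to 0.422% in the fat libraries. All 12 rose in islet macrophages in edgeR, where 8.97% of all genes tested rose. With 1 library left out, 8 to 12 of them rose, where 466 to 1649 of all genes tested did. With the replicate block 10 of them rose, where 884 of all 12152 genes tested did. When islet libraries 2 and 4 were both left out, the spread of islet library 6 had to be taken from the fat libraries. There the log2 difference was -1.10 for mt-Nd2, -1.58 for mt-Rnr1 and 2.01 for mt-Ty, while mt-Tq had 0 islet counts. These genes were picked by the threshold in that fit and do not stand for the other members. With 1 islet library, only effect sizes are given here.

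The make-up of the protein gene counts varied more for some genes than for others. Of the mitochondrial protein gene counts, mt-Co1 took 32.4% to 38.5%, mt-Cytb 17.3% to 23.2%, mt-Nd1 12.1% to 14.4% and mt-Nd4 6.29% to 7.57% over the 6 libraries. In islet library 6 mt-Nd5 took 18.3% against 10.8% to 16.2% in the other 5 libraries, and mt-Nd2 took 5.28% against 7.17% to 8.56%. It had 3.47 mt-Nd5 counts for each mt-Nd2 count, while islet libraries 2 and 4 had 1.42 and 1.26 and the fat libraries 1.78 to 2.03. For the light-strand product mt-Nd6 it had 4.30%, against 2.29% to 3.31% elsewhere. The share of mt-Nd3 was 0.341% and 0.360% in islet libraries 2 and 4, 0.181% in islet library 6 and 0.154% to 0.194% in the fat libraries. The log2 ratio of mt-Nd6 to the 12 other protein genes was -5.30, -5.37 and -4.48 in the islet libraries and -4.87, -4.92 and -5.41 in the fat libraries. The tissue means were -5.05 ± 0.50 and -5.07 ± 0.30 (SD, n = 3; exact permutation p = 0.9).

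**Figure D5:**
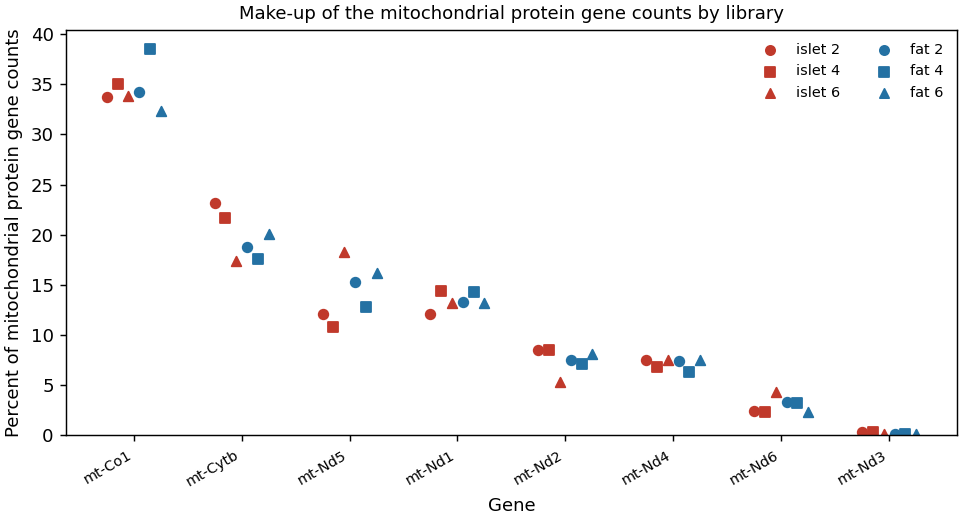
For 8 mitochondrial protein genes, points give the percent of all mitochondrial protein gene counts in each library (red islet, blue fat, shape for the number). In islet library 6, mt-Nd5 and mt-Nd6 are at their highest (18.3% and 4.30%) and mt-Nd2 at its lowest (5.28%).

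Levels were also set per length of unshared sequence, although whether shared windows held counts was not tested. Whether the counts of mt-Nd3 came from its 6 unshared windows was not tested either. Dividing CPM by the number of unshared 50-base windows, per 1000 windows, gave a mean over the 6 libraries of 3456 ± 923 for mt-Co1, 1338 ± 491 for mt-Cytb and 1069 ± 240 for mt-Nd1 (SD, n = 6). On this scale mt-Nd4 had 1053 ± 326, mt-Nd5 629 ± 166, mt-Nd2 616 ± 227 and mt-Nd6 455 ± 120. The gene mt-Co1 exceeded mt-Cytb in 6 of 6 libraries, mt-Cytb exceeded mt-Nd1 in 6 of 6 and mt-Nd4 exceeded mt-Nd5 in 6 of 6. The order of mt-Nd1 and mt-Nd4 changed with the library (mt-Nd1 higher in 2 of 6), as did that of mt-Nd5 and mt-Nd2 (mt-Nd5 higher in 3 of 6). Per kilobase without regard to sharing, mt-Nd4 averaged 384 CPM and mt-Nd1 1014. The order of these genes thus differs between both scales, and the part of sharing in it was not tested.

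Transfer RNA genes were barely counted. All 22 together had 470 counts over the 6 libraries, and 9 genes had 0 counts in every library, where a floor of 3 counts corresponds to 0.325 to 0.733 CPM of the unscaled totals. In islet libraries 2, 4 and 6 the tRNA genes took 7.03, 8.31 and 18.1 CPM of the unscaled totals, and in the fat libraries they took 11.6, 12.3 and 9.15. The means were 11.1 ± 6.03 and 11.0 ± 1.67 CPM (SD, n = 3; exact permutation p = 1). Of the 470 counts, 397 fell on mt-Ty, mt-Tp and mt-Tq, the tRNA genes for tyrosine, proline and glutamine. All 3 are read from the light-strand promoter, and their sequences follow as the tRNA members that carried counts.
mt-Ty: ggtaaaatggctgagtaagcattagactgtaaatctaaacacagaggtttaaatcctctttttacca
mt-Tp: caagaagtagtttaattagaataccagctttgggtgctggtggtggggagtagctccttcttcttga
mt-Tq: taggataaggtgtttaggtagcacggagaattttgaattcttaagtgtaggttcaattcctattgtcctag
They lie at chrM:5260-5326, chrM:15356-15422 and chrM:3772-3842, all on the - strand.

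The strands differed in tRNA counts. The 8 light-strand tRNA genes held 425 of the 470 counts (90.4%), and 1 of them, mt-Ts1, was at 0 throughout. The 14 heavy-strand tRNA genes held 45 counts, and 8 of them were at 0. Every heavy-strand tRNA gene lies within 1 base of, or overlaps, another gene of its strand. The light-strand genes mt-Tq and mt-Tp have no gene of their strand within 1175 and 1216 bases, while mt-Ty lies 2 bases from mt-Tc and mt-Ts1 1543 bases from its nearest neighbour. Whether reads spanning neighbouring genes were counted, and with which strand setting, is not stated. The part of gene spacing in the tRNA counts was not tested.

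The gene mt-Ty stood at 1.61, 4.59 and 14.7 CPM in islet and 2.55, 5.31 and 2.59 CPM in the fat libraries. Its level in islet library 6, from 109 counts, was the highest, and the other islet libraries had 8 and 16 counts (log2 1.02 ± 0.80, SE, edgeR adjusted p = 0.426). Without islet replicate 6 the difference was -0.20. For mt-Tp the counts were 19, 6 and 16 in islet and 36, 27 and 15 in the fat libraries (log2 -0.18 ± 0.72, edgeR adjusted p = 0.890). The glutamine tRNA gene mt-Tq had 8, 2 and 0 counts in islet and 20, 8 and 18 in fat libraries, too few to pass the filter. The tryptophan tRNA gene mt-Tw had 0 to 9 counts per library and mt-Tt, named after its values were seen, 3 to 11 in fat and 0 in islet libraries. Tested without a filter on low counts, mt-Tt had an edgeR unadjusted p = 0.0451 and adjusted p = 0.187.

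The other subunits of the same complexes are nuclear. Of 77 nuclear subunit genes of complexes I to V found in the table, 76 were tested, and edgeR called 0 higher and 0 lower in islet macrophages, as did DESeq2 and limma voom. Over all genes tested, edgeR called 8.97% higher and 10.5% lower. At an unadjusted p under 0.05, edgeR had 1 of the 76 higher and 2 lower, and the share over all genes at that p is not given here. Without islet replicate 6, 6 of 77 were called higher and 0 lower, where 1649 of all 12978 genes tested were higher. The fit without islet replicates 2 and 4 leaves 1 islet library, so its calls are not counted. The log2 ratio of mitochondrial to nuclear subunit counts for complex I was 2.28, 0.93 and 2.02 in the islet libraries and 2.43, 1.57 and 2.09 in the fat libraries. Islet library 4 was the lowest, and the other islet libraries lay within the fat range (1.74 ± 0.72 against 2.03 ± 0.44, SD, n = 3; exact permutation p = 0.6, 0.7 after adjustment over 4 complexes). For complex III, where cytochrome b is the only mitochondrial subunit, the ratios averaged 1.82 ± 0.73 and 2.15 ± 0.48, and for complex IV 2.17 ± 0.55 and 2.499 ± 0.34 (exact permutation p = 0.7 and 0.5, n = 3, both 0.7 adjusted). The complex IV ratio rests on mt-Co1, and that of complex V on 2 to 9 mitochondrial counts per library (exact permutation p = 0.3, n = 3), too few to compare.

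Nuclear genes that copy, transcribe and process mitochondrial DNA and RNA mostly did not pass. Of 8 tested transcription genes, 0 rose and 0 fell in edgeR, DESeq2 or limma voom. In edgeR, 8.97% of all genes tested rose and 10.5% fell. At an unadjusted p under 0.05, edgeR had 1 of the 8 higher and 0 lower, again with no share over all genes given here. Tfb2m, which opens the promoter for the mitochondrial RNA polymerase, stood at 8.06, 14.3 and 17.1 CPM in islet and 4.44, 7.03 and 6.59 CPM in the fat libraries (log2 1.13 ± 0.44, edgeR adjusted p = 0.1097). Every islet library lay above every fat library, although the gene did not pass. Tfam, which packs mitochondrial DNA and helps to start transcription, had a log2 difference of 0.36 ± 0.34, the polymerase gene Polrmt -0.28 ± 0.45 and the elongation factor gene Tefm 0.82 ± 0.61 (edgeR adjusted p = 0.521, 0.714 and 0.400).

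Among 13 tested genes of RNA processing, 2 rose and 0 fell, where 8.97% of all genes tested rose. Trmt10c, a subunit of the mitochondrial RNase P that cuts tRNA 5′ ends, stood at 41.5, 27.5 and 18.2 CPM in islet and 6.05, 8.76 and 8.23 CPM in the fat libraries. It was 3.78-fold higher in islet macrophages (log2 1.92 ± 0.39, edgeR adjusted p = 0.00985), with no overlap between tissues. Fastkd3, of a family of mitochondrial RNA-binding proteins, was 3.97-fold higher (log2 1.99 ± 0.53, edgeR adjusted p = 0.0305), at 9.27, 5.45 and 13.3 against 2.46, 2.39 and 2.24 CPM. Trmt10c missed the threshold without fat replicate 2 (adjusted p = 0.0631). Fastkd3 missed it without any 1 library except islet replicate 4 (adjusted p up to 0.125) and in the fit blocked on number (0.0880).

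Among 25 tested genes of RNA stability, decay and modification, 2 rose and 0 fell, a share near the 8.97% of all genes tested. Grsf1, a protein of mitochondrial RNA granules that binds light-strand transcripts, was 2.38-fold higher, at 115, 109 and 94.2 CPM in islet and 37.4, 50.6 and 45.8 CPM in the fat libraries (log2 1.25 ± 0.23, edgeR adjusted p = 0.00633). The libraries of each tissue lay close together, and only the fit without fat replicate 2 lost the call (adjusted p = 0.0543). Lrpprc, which keeps heavy-strand messengers stable, stood at 62.5, 54.8 and 69.0 against 31.9, 37.02 and 39.9 CPM, 1.71-fold higher (log2 0.78 ± 0.23, edgeR adjusted p = 0.0473). Its call was lost with RLE size factors (0.0536), in DESeq2 (0.0582) and without mitochondrial rRNA (0.0546) or all mitochondrial genes in the library sizes. It was also lost with no filter on low counts (0.142) and with the replicate block, alone (0.0937) or without mitochondrial genes in the library sizes. Leaving out islet replicate 2 or any 1 fat library lost it too (0.0922 to 0.226), though every islet library stood above every fat library.

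Of 14 genes of mitochondrial DNA replication and the nucleoid, 1 fell and 0 rose, where 10.5% of all genes tested fell. Polg2, the accessory subunit of the mitochondrial DNA polymerase, stood at 5.24, 7.45 and 1.75 CPM in islet and 46.7, 36.1 and 21.2 CPM in the fat libraries. It was 7.45-fold lower in islet macrophages (log2 -2.90 ± 0.55, edgeR adjusted p = 0.00712), and 3.03% of its exonic length overlaps Milr1 on the opposite strand. The call for Polg2 held in every fit run (adjusted p up to 0.0416). While 8.97% of all genes tested rose and 10.5% fell, other lists had no call. Of 19 mitochondrial tRNA synthetase genes, 14 translation factor genes and 7 regulators of mitochondrial biogenesis tested, edgeR called 0 higher and 0 lower. At an unadjusted p under 0.05 it had 0, 3 and 0 higher and 0, 0 and 1 lower, with no share over all genes given here. Limma voom called 2 translation factor genes higher, where it called 1125 of all 12152 genes tested higher, and DESeq2 called 0. The median log2 differences of these lists were 0.04, 0.07 and 0.12.

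Markers of other cell types had counts, and which cells made this RNA was not tested. All 6 beta cell markers had counts in islet libraries, where the list took 0.654%, 0.426% and 0.288% of counts, against at most 0.000497% in fat libraries. All 5 adipocyte markers together took 0.0258%, 0.0187% and 0.00524% in the fat libraries and at most 4.33e-05% in islet libraries. The 5 fibroblast markers took 0.0426%, 0.0301% and 0.00949% in the fat libraries and at most 0.000274% in islet libraries. The 6 macrophage markers took 0.466% to 0.586% in islet and 0.710% to 0.865% in fat libraries, and Ptprc, Adgre1 and Fcgr1, which encode CD45, F4/80 and CD64, had counts in all of them. Of these 6 only Lyz2 fell, with mean levels of 1474 CPM (islet) and 3692 CPM (fat). On the CPM scale Ptprc and Fcgr1 were above the fat range in every islet library, Adgre1, Csf1r and Cd68 overlapped, and edgeR called 0 of these 5, while DESeq2 and limma voom each called 1 higher. Among the named markers, the beta cell genes Iapp and Ins1 and the endocrine genes Chga and Sst rose in islet macrophages (edgeR log2 9.75 for Chga to 12.8 for Sst). The keratin gene Krt18, of the mesothelial list, rose too (log2 7.24, edgeR adjusted p = 0.00298) but was not called by limma voom. The other members of that list were not tested, and stood at a mean of 0 (Upk3b) and 0.853 (Msln) CPM in islet and 3.14 and 1.36 CPM in fat macrophages. The adipocyte genes Fabp4 and Cfd, the fibroblast genes Col1a1 and Col3a1, the endothelial gene Cdh5 and the lysozyme gene Lyz2 fell (edgeR log2 from -10.9 for Col1a1 to -1.33 for Lyz2). Fitted values of genes at 0 in a tissue, such as Sst, Cfd and Col1a1, are not bounds. With 1 library left out, 3 to 5 of 5 adipocyte and 4 to 5 of 5 fibroblast markers were called lower. In those fits 593 to 2022 of all genes tested were lower. The call for Cdh5 was lost in limma voom, with the replicate block and without islet replicate 2 or 4 or fat replicate 2 or 4. Lyz2 missed the threshold in the fits that left out islet replicate 2 or a single fat library. The chaperone genes Hspa1b and Hsph1 (log2 9.80 and 7.55) and the rRNA-like Gm26917 (2.31) rose in islet macrophages. The call for Gm26917 was lost without fat replicate 2 or 4. The part of RNA from other cells and of stress in the mitochondrial counts was not tested. In bulk RNA, more mitochondria per cell and more RNA per mitochondrion cannot be told apart.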

How the data were processed

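RNA of sorted macrophages (10 ng of total RNA per library, per the labels' protocols) was made into stranded total RNA libraries with the SMARTer Pico v2 kit. The deposited values are raw counts per gene, not normalised, and the submitters' processing notes list STAR, featureCounts, Subread 1.6.4 and the build GRCm38. The sources used here do not name the gene annotation, the strand setting or the treatment of multi-mapping reads. Total counts were 4089980 to 9235591 per library, and no row lacked a gene.

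Genes were kept by filterByExpr, scaled by TMM and tested as islet minus fat with robust quasi-likelihood fits in edgeR 4.0.16 (R 4.3.3), with a threshold of 0.05. SE is the estimate divided by the root of F. Shares and ratios were compared by exact two-sided permutation tests (scipy 1.17.1). Identifiers were matched without version to GENCODE M21 (99.6% found), and sequences were aligned with Biopython 1.88. The fit was tested on simulated data. Alternatives were other size factors, DESeq2 1.42.0, limma voom (limma 3.58.1), other filters, other denominators, the replicate block and libraries left out.

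The main fit and the exact tests are unpaired, and the replicate block is an alternative. The numbers pair the libraries, since the labels give same-numbered libraries the same batch name and the design text calls the tissues autologous. Correlations of their deviations from the tissue means, across genes, were 0.0460, 0.0630 and -0.00759 for numbers 2, 4 and 6. The text names the rRNA and protein genes, the 4 tRNA genes with the highest mean CPM, Tfam, Polrmt, Tfb2m, Tefm and Lrpprc, and from each other list the 2 called genes of each direction with the smallest adjusted p. The members and lists were chosen with earlier results of these data known.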

Additional observations from a re-analysis of the deposited data

How the results depend on the processing

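The number of mitochondrial genes called higher in islet macrophages was 0 to 1 and the number called lower 0 when any 1 library was left out. Both numbers were 0 under all other settings that kept more than 1 islet library. Without islet replicates 2 and 4 only 1 islet library remained, so calls are not counted for that fit. With the replicate number as a block, alone or with mitochondrial genes left out of the library sizes, 0 of 12 were called in either direction. Block differences for the shares were those of the unpaired comparison (-3.71 percentage points for rRNA, -0.192 for protein genes), and 3 pairs cannot give an exact p under 0.25. Calls over all genes ranged from 466 to 1649 higher and 593 to 2022 lower with 1 library left out, against 1090 and 1271 in the main fit.

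Signs changed for the following differences, none of which had passed the threshold. For mt-Cytb the log2 difference was -0.046 in limma voom, -0.053 with the replicate block, -0.086 with the block and mitochondrial genes left out of library sizes, and -0.69 without islet replicates 2 and 4, where mt-Nd3 had -0.53. With 1 library left out it ranged from -0.48 to 0.33 for mt-Cytb, -0.68 to 0.067 for mt-Rnr1, -0.67 to 0.22 for mt-Nd2, -0.20 to 1.48 for mt-Ty, -0.55 to 0.028 for mt-Co1, -0.51 to 0.17 for mt-Nd4, -0.54 to 0.016 for mt-Nd5, -0.34 to 0.15 for mt-Nd6, -0.58 to 0.026 for mt-Tp and -0.67 to 0.067 for Polrmt. The difference in tRNA counts, on the CPM scale of unscaled totals, was -0.774 with protein-coding genes as the denominator and -3.35 to 2.16 with 1 library left out. The log2 ratios then ranged from -0.45 to 0.19 for rRNA to protein genes, -0.13 to 0.18 for mt-Rnr2 to mt-Rnr1, -0.27 to 0.18 for mt-Nd6 and -0.56 to 0.12 for complex I. The cause was not tested. Nuclear subunit genes gave 6 higher without islet replicate 6. With 0 to 19 counts per library, the 5 low protein genes and most tRNA genes were not compared between tissues.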
